A study of Mus musculus with 12 samples.

Results

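Sorted cells of the mouse cerebral cortex, labelled as astrocytes, were profiled 21 days after an ischemic stroke. They were compared with cells of the same label from sham-operated mice. The day 21 group and the sham group held 2 libraries each, all 4 from wild-type C57BL/6J mice, and the comparison covered the 15635 tested genes of 15774 in the files. For stroke, the distal middle cerebral artery was tied off for good and both common carotid arteries were then closed for 7 min, whereas in sham mice only the surface of the skull was lesioned. Cells were isolated by FACS from cortical tissue and their total RNA was sequenced. The sort marker, the age and sex of the mice, the part of the cortex relative to the infarct and any pooling of animals are not given in the sources used here. Nothing says that replicates came from different animals, so p-values measure only the spread between these libraries, which may be technical. The whole series holds 12 libraries in 6 groups of 2, with days 1, 3, 7 and 60 after stroke beside these, and day 21 was also set against its neighbours in time, day 7 and day 60.

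Astrocytes tile the cortex, clear glutamate and potassium from the extracellular space, feed neurons with lactate and cholesterol, and cover blood vessels with end-feet that carry water channels. After ischemia they enlarge and make more intermediate filament protein, a state called reactive astrogliosis, and those around the lesion form a border between spared tissue and a core of fibroblasts and blood-derived phagocytes. Signals such as IL-6 family cytokines, IL-1 and TNF act on them through STAT3 and NF-kB, interferons act on them too, and these signals switch on complement, acute phase and antigen presentation genes.

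Total counts were 15772542 and 122366362 in replicates 1 and 2 at day 21, against 16575045 and 113052833 in sham, and 13006008 to 156128922 over all 12 libraries. Levels are CPM, counts scaled by the library total and TMM factors, always given for replicate 1 and then replicate 2, and a gene at 0 counts was set at a floor of 3 counts per library, a mean of 0.0974 CPM at day 21 and 0.104 CPM in sham. A fold bound is the mean CPM at day 21 over the mean sham floor, so it is a bound on the ratio of means and a single library can lie below it. Floors cover counting error only, and the standard errors given below also cover the spread between libraries. Differences are log2 fold changes ± standard error from one edgeR quasi-likelihood fit of all 12 libraries, and a gene passed at a Benjamini-Hochberg adjusted p under 0.05 over all tested genes. The correlation of log2 CPM was 0.933 between the day 21 libraries and 0.929 between the sham libraries, and 0.710 to 0.764 between day 21 and sham libraries.

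At day 21, 5190 genes differed from sham (33.2% of those tested), 2786 of them higher (17.8%) and 2404 lower (15.4%). With the replicate number as a block 7227 differed (46.2%), but values below are from the fit without it unless stated. The median absolute log2 fold change of the 5190 genes was 2.36. Log2 fold changes passed 4 in 695 of the higher genes and fell under -4 in 66 of the lower ones. In 5188 of the 5190 the groups did not overlap, which a call with 2 libraries a group nearly requires, so this is no separate support. The share of all tested genes without overlap was not counted. No count was seen in either sham library for 115 of the higher genes. The median over all tested genes was 0.07, and -0.05 with RLE size factors, and the medians of gene lists below are read against these. The number of calls fell to 2774 without day 21 replicate 1, 2628 without day 21 replicate 2, 2962 without sham replicate 1 and 3406 without sham replicate 2. In all 4 of these leave-one-out fits and the full one, 2009 genes (12.8%) passed, 1402 higher (8.97%) and 607 lower (3.88%).

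**Figure D1:**
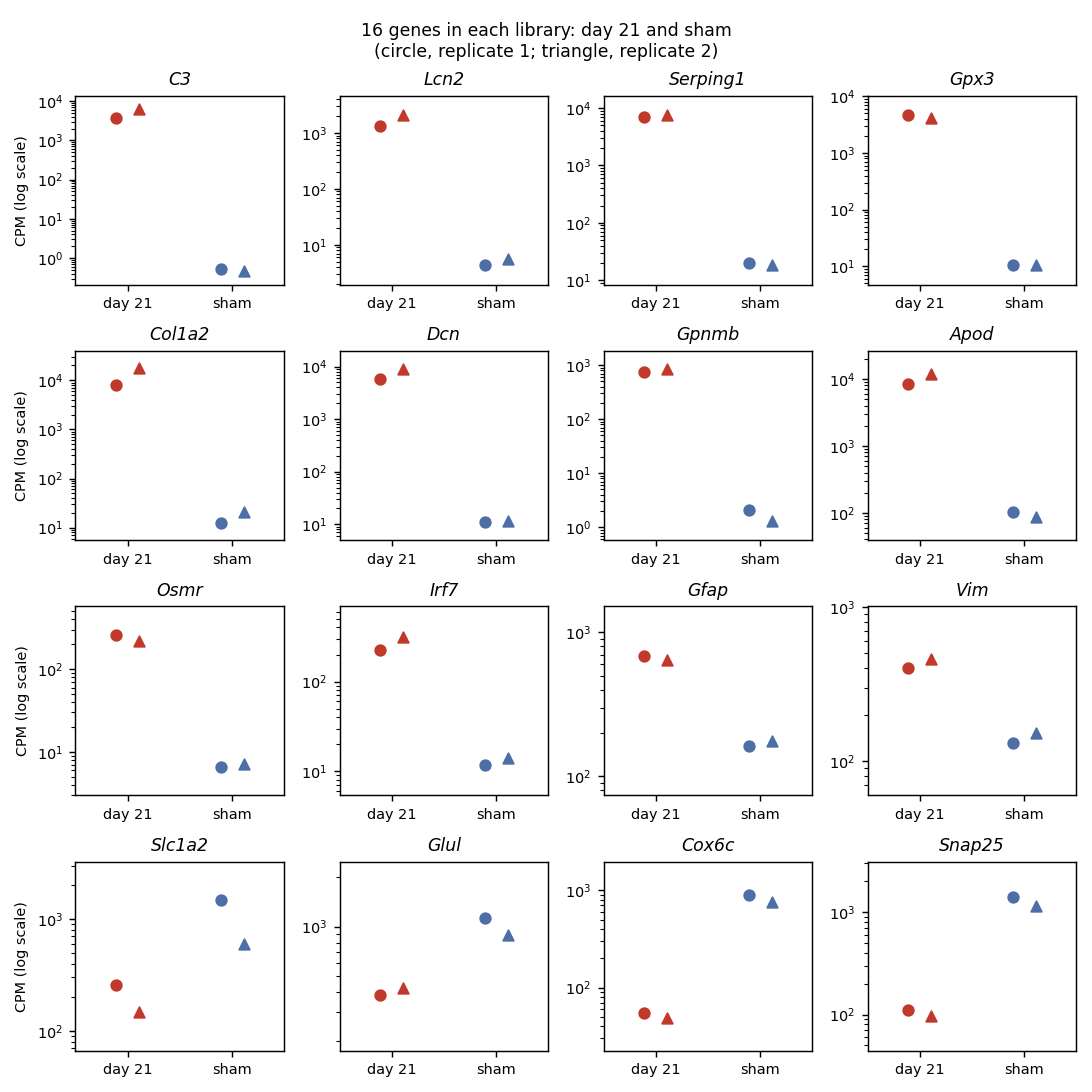
CPM on a log scale of 16 genes in the day 21 libraries (red, left) and sham libraries (blue, right), with circles for replicate 1 and triangles for replicate 2. C3, Lcn2, Serping1, Gpx3, matrix, lysosomal and lipid genes were higher at day 21 in both libraries, Gfap and Vim were higher by less, and Slc1a2, Glul, Cox6c and Snap25 were lower.

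Complement, metalloproteinase and chemokine genes were among those with the largest increases. C3, the central component of the complement cascade (mm10 chr17:57203970-57228136, minus strand), had 3611 and 6280.0 CPM at day 21, against 0.538 and 0.462 CPM in sham. Its log2 fold change was 13.28 ± 1.47 (adjusted p = 0.000219), and both day 21 libraries lay above both sham libraries. C6, a component of the membrane attack complex, had 109 and 116 CPM at day 21, against 0 and 0 CPM in sham, at least 1085-fold higher (adjusted p = 0.000175). Ltbp2, a latent TGF-beta binding protein of elastic matrix, had 601 and 773 CPM at day 21, against 0.0597 and 0 CPM in sham (adjusted p = 4.26e-05). Cxcl13, a chemokine that attracts B cells, had 358 and 294 CPM at day 21, against 0.0597 and 0 CPM in sham (adjusted p = 4.51e-05). Both were close to absent in sham, with 1 count in sham replicate 1 alone. Mmp3, a stromelysin that cleaves proteoglycans, had 2233 and 4613 CPM at day 21, against 0.538 and 0.0385 CPM in sham (13.87 ± 1.64, adjusted p = 0.000302). Mmp12, the macrophage elastase, had 39.7 and 47.3 CPM at day 21, against 0 and 0 CPM in sham, at least 418-fold higher (adjusted p = 8.85e-05). Cd5l, a secreted macrophage protein, had 46.2 and 36.8 CPM at day 21, against 0 and 0 CPM in sham, at least 399-fold higher (adjusted p = 6.04e-05). The kininogens Kng1. Kng2, close paralogs that can share reads, had 38.1 and 59.9 CPM at day 21, against 0 and 0 CPM in sham for Kng1, at least 471-fold higher (adjusted p = 0.00128), and a bound of 502-fold for Kng2. Ssc5d and Dpep1 were likewise at 0 in both sham libraries, with bounds of 525- and 354-fold. Saa4 had 23.8 and 123 CPM at day 21, against 0 and 0 CPM in sham, a bound of 706-fold that was 229-fold from day 21 replicate 1 alone and 1183-fold from replicate 2 alone. The genes of this paragraph were named only if the groups did not overlap and the call held when any 1 of the 4 libraries was left out. Neither is therefore a separate result.

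Some genes were counted differently in the 2 replicates, and their values are uncertain. Close copies such as C4a and C4b were among them, but how many of these genes have such a copy was not tested. Of 10113 genes with a mean of at least 10 CPM, 147 were over 8-fold higher in replicate 2 than in replicate 1 at day 21, and 2 the other way. In sham these numbers were 121 and 1. The complement gene C4a had 0.0560 and 24165 CPM at day 21, against 0.0597 and 215 CPM in sham, and its neighbour C4b had 1166 and 27203 CPM at day 21, against 1.31 and 18.7 CPM in sham. C4b passed (10.46 ± 3.15, adjusted p = 0.0282) but not without 3 of the libraries (adjusted p = 0.107 omitting day 21 replicate 2, 0.139 omitting sham replicate 1 and 0.0761 omitting sham replicate 2), and C4a did not pass (adjusted p = 0.372). In both replicates C4b was higher at day 21 than in the sham library of the same number. C1ra and Mmp10 showed the same split between replicates, with 489 and 7310.4 CPM at day 21, against 1.79 and 14.5 CPM in sham for C1ra (adjusted p = 0.0183; adjusted p = 0.0801 omitting day 21 replicate 2, 0.107 omitting sham replicate 1 and 0.0566 omitting sham replicate 2) and 5.21 and 441 CPM at day 21, against 0 and 0 CPM in sham for the stromelysin Mmp10 (adjusted p = 0.0322; adjusted p = 0.133 omitting day 21 replicate 2, 0.11 omitting sham replicate 1 and 0.141 omitting sham replicate 2). Elane, the neutrophil elastase, had 0.336 and 80.02 CPM at day 21, against 0 and 0 CPM in sham (adjusted p = 0.0487, 0.0503 with the replicate block; adjusted p = 0.13 omitting sham replicate 1 and 0.171 omitting sham replicate 2).

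Reactive astrocyte genes were higher as a group. Of the genes induced in astrocytes by both ischemia and endotoxin (pan-reactive), 10 of 13 tested members passed as higher and 0 as lower, with a median log2 fold change of 4.33. Lcn2, a siderophore-binding protein that sequesters iron (mm10 chr2:32384633-32388252, minus strand), had 1344 and 2113 CPM at day 21, against 4.30 and 5.51 CPM in sham (8.46 ± 0.59, adjusted p = 4.26e-05). Steap4, a metalloreductase, had 1057 and 549.7 CPM at day 21, against 1.25 and 0.240 CPM in sham (10.20 ± 0.98, adjusted p = 0.000114). Cp, the ferroxidase ceruloplasmin, had 1929 and 2212 CPM at day 21, against 31.7 and 49.2 CPM in sham (5.68 ± 0.65, adjusted p = 0.000255). Aspg had 201 and 266 CPM at day 21, against 2.39 and 1.55 CPM in sham. All 4 rose in both libraries. Gfap, the astrocyte intermediate filament protein (mm10 chr11:102887336-102900912, minus strand), had 691 and 646 CPM at day 21, against 161 and 175 CPM in sham, and its log2 fold change of 1.99 ± 0.64 passed narrowly (adjusted p = 0.0355). The Gfap groups did not overlap, yet the call ended in each leave-one-out fit (adjusted p = 0.139 omitting day 21 replicate 1, 0.0954 omitting day 21 replicate 2, 0.154 omitting sham replicate 1 and 0.124 omitting sham replicate 2). Vim, the filament protein vimentin, had 402 and 459 CPM at day 21, against 132 and 153 CPM in sham (1.596 ± 0.32, adjusted p = 0.00445). Cd44, a hyaluronan receptor, had 32.9 and 29.2 CPM at day 21, against 1.37 and 1.68 CPM in sham (4.33 ± 0.42, adjusted p = 0.000116). Serpina3n did not pass at 14.6 and 18.6 CPM at day 21, against 4.54 and 7.34 CPM in sham (adjusted p = 0.116, 0.0311 with the replicate block). Timp1, an inhibitor of metalloproteinases, had 146 and 245 CPM at day 21, against 1.31 and 228 CPM in sham and did not pass (adjusted p = 0.686). Its groups overlapped through sham replicate 2. Timp1 was among the genes counted differently in the 2 replicates, so its result is uncertain. In each replicate it was higher at day 21 than in the sham library of the same number.

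Of the list of genes tied to endotoxin (A1), 6 of 11 tested members passed as higher and 0 as lower, with a median log2 fold change of 3.02. Higher calls numbered 6 in each of the 4 leave-one-out fits. Serping1, which codes for the C1 inhibitor, had 6869 and 7500.1 CPM at day 21, against 19.5 and 18.4 CPM in sham (8.57 ± 0.57, adjusted p = 4.26e-05). Gbp2, an interferon-induced GTPase, had 229.7 and 348 CPM at day 21, against 14.5 and 30.5 CPM in sham (3.68 ± 0.64, adjusted p = 0.00225). Fbln5, an elastic fibre protein, had 60.6 and 49.9 CPM at day 21, against 4.78 and 6.45 CPM in sham (3.29 ± 0.33). Of the list tied to ischemia (A2), 9 of 12 tested members passed as higher and 0 as lower, with a median log2 fold change of 3.62. Higher calls numbered 6 to 8 over the 4 leave-one-out fits. Sphk1, which makes sphingosine 1-phosphate, had 56.7 and 70.2 CPM at day 21, against 2.27 and 1.56 CPM in sham (5.07 ± 0.51, adjusted p = 0.000141). Ptx3, a long pentraxin, had 25.1 and 16.4 CPM at day 21, against 0.896 and 0.471 CPM in sham (4.98 ± 0.75, adjusted p = 0.00113). Emp1 had 40.8 and 23.6 CPM at day 21, against 1.73 and 0.366 CPM in sham (5.05 ± 0.91). Members of both lists were thus higher at day 21, and no test set one list against the other. Of filament and cytoskeleton genes of reactive glia, 10 of 21 tested members passed as higher and 1 as lower, with a median log2 fold change of 1.596. Tubb6, a beta-tubulin, had 88.9 and 71.4 CPM at day 21, against 4.54 and 4.18 CPM in sham (4.203 ± 0.54), and the actin crosslinker Flna had 425 and 628 CPM at day 21, against 40.4 and 93.5 CPM in sham (2.98 ± 0.47, adjusted p = 0.00141). Anxa2 and Lmna had log2 fold changes of 2.87 ± 0.46 and 2.53 ± 0.37.

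Acute phase and complement genes stood among the largest increases. Of acute phase and iron-binding genes, 11 of 16 tested members passed as higher and 0 as lower, with a median log2 fold change of 6.55 (5.80 with members at 0 in sham at their bound). Saa3, a serum amyloid A protein made outside the liver, had 414 and 666 CPM at day 21, against 0.179 and 1.15 CPM in sham (9.52 ± 0.83, adjusted p = 7.12e-05). Saa1 had 15.6 and 43.4 CPM at day 21, against 0.0597 and 0 CPM in sham (adjusted p = 0.00033). Saa2 had 6.33 and 10.6 CPM at day 21, against 0 and 0 CPM in sham, at least 81.3-fold higher, but these close copies can share reads. The ferritin heavy chain gene Fth1 was lower without passing by the unblocked fit, at 8085 ± 2201 CPM at day 21 and 19510.4 ± 332 CPM in sham (-1.27 ± 0.49, adjusted p = 0.072, 0.0137 with the replicate block). Of complement components and regulators, 15 of 22 tested members passed as higher and 0 as lower, with a median log2 fold change of 5.10. Higher calls numbered 10 to 13 over the 4 leave-one-out fits. Beside C3 and C6, the classical protease C2 averaged 441 ± 105 CPM at day 21 and 3.83 ± 2.02 CPM in sham (6.86 ± 0.71, adjusted p = 0.000157) and factor B (Cfb) 186 ± 57.2 CPM at day 21 and 4.31 ± 0.319 CPM in sham (5.43 ± 0.70, adjusted p = 0.000481; SD, n = 2 each). The membrane regulators Cd55 and Cd59a did not pass (adjusted p = 0.0983 and 0.525; Cd55 0.0471 with the replicate block). The microglial C1q chains moved too, with C1qa at 306 and 242 CPM at day 21, against 48.3 and 39.3 CPM in sham (2.64 ± 0.59, adjusted p = 0.00752; adjusted p = 0.0556 omitting sham replicate 2).

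Promoter sequence is shown for C3 and Saa3, which code for secreted acute phase proteins. The transcription factor gene Cebpb was higher too, and its part in their increase was not tested. Cebpb, a bZIP factor of the acute phase response, had 1268 and 1657 CPM at day 21, against 46.1 and 44.04 CPM in sham (5.02 ± 0.44, adjusted p = 7.12e-05). The 250 bases before the transcription start (RefSeq, GRCm38.p6, minus strand for both, at chr17:57228137-57228386 for C3 and chr7:46715677-46715926 for Saa3) read, 5′ to 3′, with matches to the C/EBP-type motif TTGCNNAA on either strand in capitals:
C3: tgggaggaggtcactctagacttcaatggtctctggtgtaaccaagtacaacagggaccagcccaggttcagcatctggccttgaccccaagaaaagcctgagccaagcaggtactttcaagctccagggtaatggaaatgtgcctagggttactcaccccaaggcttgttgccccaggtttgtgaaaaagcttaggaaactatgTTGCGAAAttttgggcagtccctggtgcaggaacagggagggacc
Saa3: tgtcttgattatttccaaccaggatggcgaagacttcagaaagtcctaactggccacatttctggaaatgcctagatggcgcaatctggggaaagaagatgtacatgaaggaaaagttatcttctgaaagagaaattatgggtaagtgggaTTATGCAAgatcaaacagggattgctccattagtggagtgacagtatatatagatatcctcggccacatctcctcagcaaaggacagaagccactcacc
The match begins 45 bases before the start in C3 and 99 bases before it in Saa3. Matches to this motif lay in 10 of 18 promoters of the acute phase list (55.6%), which cover 13 of its genes, against 9.56% of all 32851 promoters in the table. Those of Lcn2, Saa1, Saa2 and Itih2 were among the matches. The share was 15.4% of 13 promoters in the complement list, to which C3 belongs, 17.4% of 23 in the cytokine list, and 0.0% of 23 in the list of JAK-STAT3 and NF-kB regulators. Matches lay in 9.69% of promoters of genes higher at day 21, 5.88% of those of lower genes and 7.84% of those of genes that did not pass. A match is a run of letters and not a measured binding site, and promoters of 1 gene can overlap.

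Inflammatory signals and their feedback regulators were higher. Of cytokines and chemokines, 19 of 27 tested members passed as higher and 1 as lower, with a median log2 fold change of 5.46. Higher calls numbered 18 to 19 over the 4 leave-one-out fits. Ccl2, which attracts monocytes, had 94.1 and 95.7 CPM at day 21, against 0.179 and 0.577 CPM in sham (7.81 ± 0.70, adjusted p = 7.92e-05). Ccl7 had 153 and 128 CPM at day 21, against 0.119 and 0.0866 CPM in sham (10.50 ± 0.87). Cxcl5, a neutrophil attractant, had 486 and 358 CPM at day 21, against 0.478 and 0.212 CPM in sham (10.401 ± 0.70, adjusted p = 4.26e-05). Cxcl10, an interferon-induced T cell attractant, had 69.7 and 46.3 CPM at day 21, against 2.09 and 0.635 CPM in sham (5.49 ± 0.71, adjusted p = 0.000495). Csf3, the granulocyte growth factor, had 9.52 and 9.95 CPM at day 21, against 0 and 0 CPM in sham, at least 93.6-fold higher (adjusted p = 0.00215). Tnf had 15.96 and 13.3 CPM at day 21, against 0.299 and 0.346 CPM in sham (5.46 ± 0.65, adjusted p = 0.000313). Of JAK-STAT3 and NF-kB regulators, 25 of 26 tested members passed as higher and 0 as lower, with a median log2 fold change of 3.55. Higher calls numbered 22 to 23 over the 4 leave-one-out fits. Among receptors and transducers, Osmr, the oncostatin M receptor, had 262 and 221 CPM at day 21, against 6.57 and 7.11 CPM in sham (5.14 ± 0.44, adjusted p = 7.11e-05). Stat3 had 393 and 531 CPM at day 21, against 54.1 and 78.6 CPM in sham (2.80 ± 0.40, adjusted p = 0.000877). Among inhibitors induced by these pathways, Socs3 had 253 and 161 CPM at day 21, against 9.91 and 5.73 CPM in sham (4.73 ± 0.84, adjusted p = 0.00247). Tnfaip3, a ubiquitin-editing enzyme that limits NF-kB, had 167 and 123 CPM at day 21, against 1.49 and 4.65 CPM in sham (5.53 ± 0.87). Nfkbiz had 174 and 192 CPM at day 21, against 1.85 and 4.46 CPM in sham (5.83 ± 0.61, adjusted p = 0.000168).

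Interferon-response genes were higher nearly throughout: 27 of 28 tested members passed as higher and 0 as lower, with a median log2 fold change of 2.71. Higher calls numbered 21 to 23 over the 4 leave-one-out fits. Irf7, the transcription factor that amplifies the type I interferon response, had 227 and 312 CPM at day 21, against 11.9 and 14.03 CPM in sham (4.38 ± 0.43, adjusted p = 0.000117). Zbp1, a sensor of Z-form nucleic acid, had 40.8 and 37.3 CPM at day 21, against 0.836 and 0.750 CPM in sham (5.63 ± 0.41, adjusted p = 4.26e-05). Mx1, a dynamin-like antiviral GTPase, had 4.48 and 4.91 CPM at day 21, against 0.179 and 0 CPM in sham (adjusted p = 0.0114), with 3 sham counts in all. The groups did not overlap for any of the 3, and the libraries within a group lay close together.

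The promoters of Isg15 and Ifit1, textbook interferon-stimulated genes and members of that list, are shown with matches to an interferon-response element (ISRE) motif. Isg15 averaged 27.00 ± 3.24 CPM at day 21 and 6.23 ± 2.59 CPM in sham (2.12 ± 0.58, adjusted p = 0.0194, and 0.0896 omitting day 21 replicate 1, 0.0563 omitting day 21 replicate 2 and 0.125 omitting sham replicate 2), and Ifit1 128 ± 44.05 CPM at day 21 and 13.9 ± 6.96 CPM in sham (3.21 ± 0.57, adjusted p = 0.00245). The ISRE-type motif searched was a pair of GAAA runs with any 2 bases between them. Its matches on either strand are in capitals in the 250 bases before the start (RefSeq, GRCm38.p6, chr4:156200819-156201068 on the minus strand for Isg15 and chr19:34640639-34640888 on the plus strand for Ifit1):
Isg15: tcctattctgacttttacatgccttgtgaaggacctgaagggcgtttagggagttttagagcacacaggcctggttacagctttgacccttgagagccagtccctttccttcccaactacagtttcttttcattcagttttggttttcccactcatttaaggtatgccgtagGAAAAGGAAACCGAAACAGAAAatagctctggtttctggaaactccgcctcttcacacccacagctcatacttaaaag
Ifit1: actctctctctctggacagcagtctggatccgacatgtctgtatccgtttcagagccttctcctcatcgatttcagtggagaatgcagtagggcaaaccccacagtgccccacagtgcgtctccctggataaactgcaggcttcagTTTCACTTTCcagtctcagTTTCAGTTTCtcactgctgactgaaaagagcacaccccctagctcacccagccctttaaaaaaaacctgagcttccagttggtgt
Isg15 holds 3 overlapping matches that begin 78 to 66 bases before the start, and Ifit1 holds 2 that begin 104 and 85 bases before it. Matches lay in 12 of 26 promoters of the interferon list (46.2%), which cover 22 of its genes, against 2.98% of all promoters in the table. Among them were those of Irgm1, Igtp, Rsad2, Ifit3, Oas1a, Stat2 and Gbp2. The share was 3.71% for genes higher at day 21, 2.47% for lower genes and 2.45% for genes that did not pass. The list was made of genes known to respond to interferon, so its share is no result about day 21. Here too a match is not a measured binding site.

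Antigen presentation and engulfment genes were higher as well. Of MHC class I presentation genes, 11 of 16 tested members passed as higher and 0 as lower, with a median log2 fold change of 3.06. Higher calls numbered 10 to 11 over the 4 leave-one-out fits. Tap1, a subunit of the peptide transporter, had 85.9 and 115 CPM at day 21, against 4.42 and 6.03 CPM in sham (4.26 ± 0.36, adjusted p = 6.9e-05). Tapbp, the peptide-loading factor tapasin, had 1117 and 1183 CPM at day 21, against 89.7 and 91.5 CPM in sham (3.67 ± 0.39, adjusted p = 0.000187). Class I heavy chains share sequence, and H2-D1 had 458 and 3636 CPM at day 21, against 52.0 and 413 CPM in sham (adjusted p = 0.137, 0.000133 with the replicate block). It was higher at day 21 in both replicates, but sham replicate 2 lay close to day 21 replicate 1. Of MHC class II presentation genes, 8 of 13 tested members passed as higher and 0 as lower, with a median log2 fold change of 3.18. The invariant chain Cd74 had 584 and 1015 CPM at day 21, against 3.76 and 2.44 CPM in sham (8.02 ± 0.67, adjusted p = 6.04e-05). H2-Ab1 had 166 and 234 CPM at day 21, against 0.299 and 0.741 CPM in sham (8.49 ± 0.94, adjusted p = 0.000219). H2-Aa and H2-Eb1 rose by 7.84 ± 0.94 and 7.24 ± 0.84. Of engulfment and lysosome genes, 21 of 24 tested members passed as higher and 0 as lower, with a median log2 fold change of 3.14. Higher calls numbered 18 to 19 over the 4 leave-one-out fits. Gpnmb, a lysosomal glycoprotein, had 739 and 832 CPM at day 21, against 2.09 and 1.28 CPM in sham (8.88 ± 1.21, adjusted p = 0.000633). Lgals3, which codes for galectin-3, had 151 and 165 CPM at day 21, against 1.67 and 2.29 CPM in sham (6.30 ± 0.50, adjusted p = 5.12e-05). Ctsl, the protease cathepsin L, had 1513 and 1970.3 CPM at day 21, against 70.5 and 74.97 CPM in sham (4.58 ± 0.42). Abca1, the cholesterol efflux pump, had 667 and 642 CPM at day 21, against 10.9 and 10.36 CPM in sham (5.94 ± 0.52, adjusted p = 7.18e-05).

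Markers of other immune cells differed in part, and their counts stand against 17.8% higher among all tested genes. The 17 macrophage and monocyte markers held 0.160% and 0.235% of the counts at day 21, against 0.00363% and 0.0253% in sham, and 10 of them were higher and 1 lower, with a median of 2.88. Lyz2, the lysozyme of macrophages and neutrophils, had 1113 and 2178 CPM at day 21, against 13.1 and 13.6 CPM in sham (6.95 ± 0.68, adjusted p = 0.000124). The 16 microglia markers held 0.324% and 0.273% of the counts at day 21, against 0.0910% and 0.0955% in sham, and 6 were higher (37.5%) and 0 lower (median 1.19). Higher calls numbered 2 to 5 over the 4 leave-one-out fits (3 omitting day 21 replicate 1, 3 omitting sham replicate 1 and 2 omitting sham replicate 2), and 10 with the replicate block. Trem2, a lipid receptor of activated microglia, had 92.4 and 163 CPM at day 21, against 17.7 and 23.6 CPM in sham (2.63 ± 0.45, adjusted p = 0.00206). P2ry12, a receptor of resting microglia, averaged 26.1 ± 10.1 CPM at day 21 and 71.4 ± 12.7 CPM in sham and did not pass (adjusted p = 0.06, 0.0239 with the replicate block). The neutrophil list held 0.190% and 0.236% of the counts at day 21, against 0.00266% and 0.00135% in sham, mostly in Lcn2, which the pan-reactive list holds too. Of its 13 tested members 7 were higher and 0 lower (median 5.23). The number of higher calls fell without day 21 replicate 2 and without sham replicate 2. The members S100a8, S100a9 and Retnlg did not pass. Of dendritic cell markers 4 of 11 were higher (36.4%, median 3.59, or 2.69 with members at 0 at their bound). T, B and NK cell markers held 0.00453% and 0.00467% of the counts at day 21, against 0.000748% and 0.000701% in sham. Of these, 4 of 16 were higher (25%, median 1.83 with members at 0 at their bound), a share near that of all tested genes. The count was 1 in each fit without 1 library, 2 with the deeper libraries thinned and 8 by DESeq2, and 11 were at 0 in both sham libraries, among them Cd3d, Cd3e and Nkg7. With 2 libraries against 2, an exact permutation test of a share cannot give a two-sided p below 0.333, the value of each share here that did not overlap between groups. The part of other cells in the immune gene differences was not tested. In bulk libraries a smaller share of cells of a type and less RNA per cell cannot be told apart.

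**Figure D2:**
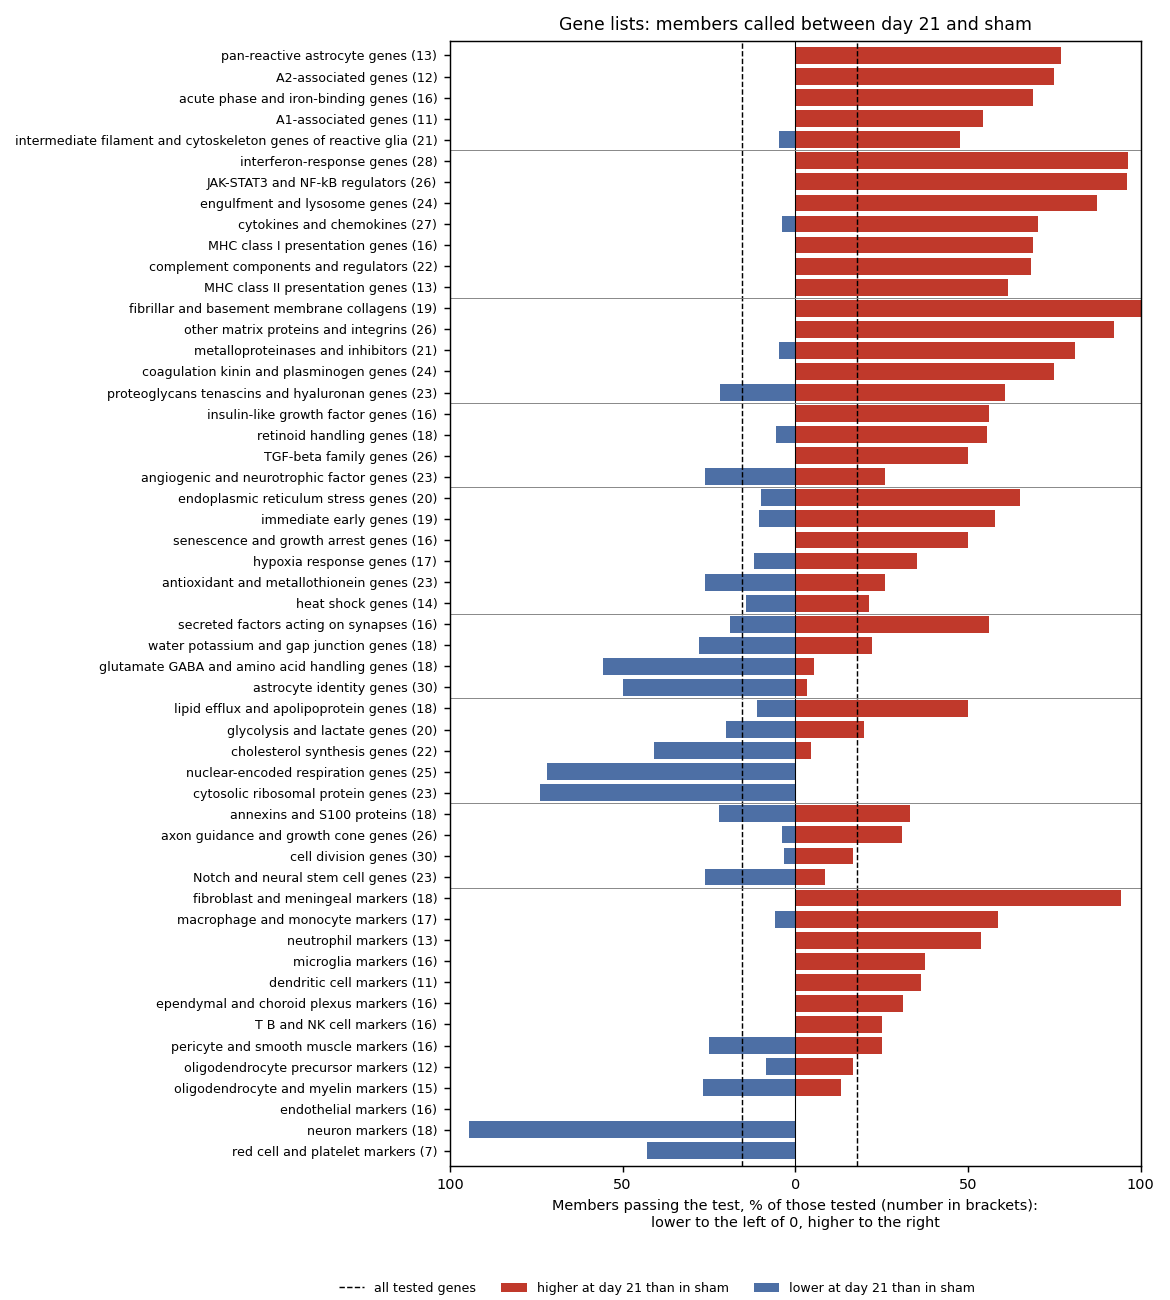
Percent of tested members of 53 gene lists that passed as higher (red, right of 0) or lower (blue, left of 0) at day 21 than in sham, with the number tested in brackets and dashed lines at the percent of all tested genes, 17.8% higher and 15.4% lower. Collagens, interferon-response genes, JAK-STAT3 and NF-kB regulators and fibroblast markers passed as higher in 94.4% to 100% of members, and neuron markers as lower in 94.4%.

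Collagens formed the most uniform of the 53 lists. All 19 tested collagens were higher, with a median log2 fold change of 7.05, and all 19 passed in each fit without 1 library. Col1a1, a chain of the main fibrillar collagen, had 4114 and 10866 CPM at day 21, against 7.35 and 5.02 CPM in sham (10.24 ± 1.83, adjusted p = 0.0026). Col1a2 had 7859 and 17935 CPM at day 21, against 12.4 and 21.3 CPM in sham (9.58 ± 1.37). Col6a1, a chain of the beaded filaments of type VI collagen, had 857 and 1241 CPM at day 21, against 2.81 and 1.41 CPM in sham (8.98 ± 0.78, adjusted p = 7.12e-05). Of other matrix proteins and integrins, 24 of 26 tested members passed as higher and 0 as lower, with a median log2 fold change of 4.07. Tgfbi had 618 and 847 CPM at day 21, against 1.91 and 1.13 CPM in sham (8.93 ± 0.70, adjusted p = 5.12e-05). Postn, the fibroblast protein periostin, had 548 and 678 CPM at day 21, against 1.19 and 2.86 CPM in sham (8.21 ± 0.91, adjusted p = 0.000224). Fbn1 and Fbln1, of the microfibrils, rose by 8.18 ± 0.61 and 7.91 ± 0.81. Of proteoglycans, tenascins and hyaluronan genes, 14 of 23 tested members passed as higher and 5 as lower, with a median log2 fold change of 2.64. Lower calls numbered 0 to 3 over the 4 leave-one-out fits (0 omitting day 21 replicate 1, 0 omitting day 21 replicate 2, 2 omitting sham replicate 1 and 3 omitting sham replicate 2). The small leucine-rich proteoglycans led this list, with Lum at 2246 and 1398 CPM at day 21, against 2.51 and 1.32 CPM in sham (9.91 ± 0.73), Dcn at 5921 and 8991 CPM at day 21, against 11.05 and 11.4 CPM in sham (9.37 ± 0.68, adjusted p = 4.26e-05) and Bgn at 1056 and 884 CPM at day 21, against 7.70 and 8.91 CPM in sham (6.87 ± 0.48).

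Proteases that remodel this matrix were higher too. Of metalloproteinases and their inhibitors, 17 of 21 tested members passed as higher and 1 as lower, with a median log2 fold change of 5.99. Mmp13, an interstitial collagenase, had 961 and 951 CPM at day 21, against 0.358 and 0 CPM in sham (13.13 ± 1.80, adjusted p = 0.000659). Of coagulation, kinin and plasminogen genes, 18 of 24 tested members passed as higher and 0 as lower, with a median log2 fold change of 3.60 (3.14 with 4 members at 0 in sham at their bound). Higher calls numbered 12 to 14 over the 4 leave-one-out fits. Serpinf1, which codes for pigment epithelium-derived factor, had 1276 and 1575 CPM at day 21, against 6.27 and 4.57 CPM in sham (8.04 ± 0.65, adjusted p = 5.52e-05).

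Fibroblast and meningeal markers moved with the matrix genes. They held 3.06% and 4.74% of the counts at day 21, against 0.0153% and 0.0138% in sham, and 17 of 18 were higher and 0 lower (median 5.16), all 17 in each fit without 1 library. None of them was at 0 in either group. The list shares Col1a1, Col1a2, Col3a1, Lum, Ogn and Dcn with the matrix lists, so its share is not a separate measure of them. Among members that code for no matrix protein, Foxc1, a transcription factor of meningeal fibroblasts, averaged 319.6 ± 83.2 CPM at day 21 and 23.9 ± 3.87 CPM in sham (3.74 ± 0.53, adjusted p = 0.00079), and Slc6a13, a GABA transporter of the leptomeninges, 107 ± 27.3 CPM at day 21 and 4.199 ± 0.701 CPM in sham (4.66 ± 0.50, adjusted p = 0.000187). Tbx18, a mural and meningeal factor, averaged 63.3 ± 9.23 CPM at day 21 and 1.58 ± 0.550 CPM in sham (5.29 ± 0.50, adjusted p = 9.9e-05). Pdgfra, a receptor of fibroblasts and of oligodendrocyte precursors, had 598 and 490.2 CPM at day 21, against 12.2 and 20.8 CPM in sham (5.04 ± 0.51, adjusted p = 0.000143). Pdgfrb, a receptor of pericytes and fibroblasts, had 836 and 882 CPM at day 21, against 16.1 and 25.8 CPM in sham (5.36 ± 0.49, adjusted p = 9.19e-05). Pericyte and smooth muscle markers were mixed (4 higher and 4 lower of 16, median 0.42). Lower calls came to 2 to 4 over the 4 leave-one-out fits (2 omitting day 21 replicate 1, 2 omitting day 21 replicate 2 and 2 omitting sham replicate 2), and higher calls to 2 to 3 over the 4 leave-one-out fits (2 omitting sham replicate 1 and 2 omitting sham replicate 2). Vtn was higher at 461 and 544 CPM at day 21, against 88.5 and 90.96 CPM in sham (2.49 ± 0.36), and Acta2, smooth muscle actin, lower at 40.8 and 54.4 CPM at day 21, against 272 and 347 CPM in sham (-2.70 ± 0.32, adjusted p = 0.000289). Endothelial markers held 0.374% and 0.460% of the counts at day 21, against 0.275% and 0.394% in sham, and 0 of 16 passed by edgeR (median 0.21), against 2 with the replicate block. Ependymal and choroid plexus markers were higher in 5 of 16 (median 2.23), among them Folr1 at 32.9 and 37.02 CPM at day 21, against 2.27 and 8.03 CPM in sham. Their calls numbered 3 to 7 over the 4 leave-one-out fits (3 omitting day 21 replicate 1, 3 omitting day 21 replicate 2 and 3 omitting sham replicate 1). The part of fibroblasts or other cells in the matrix differences was not tested.

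**Figure D3:**
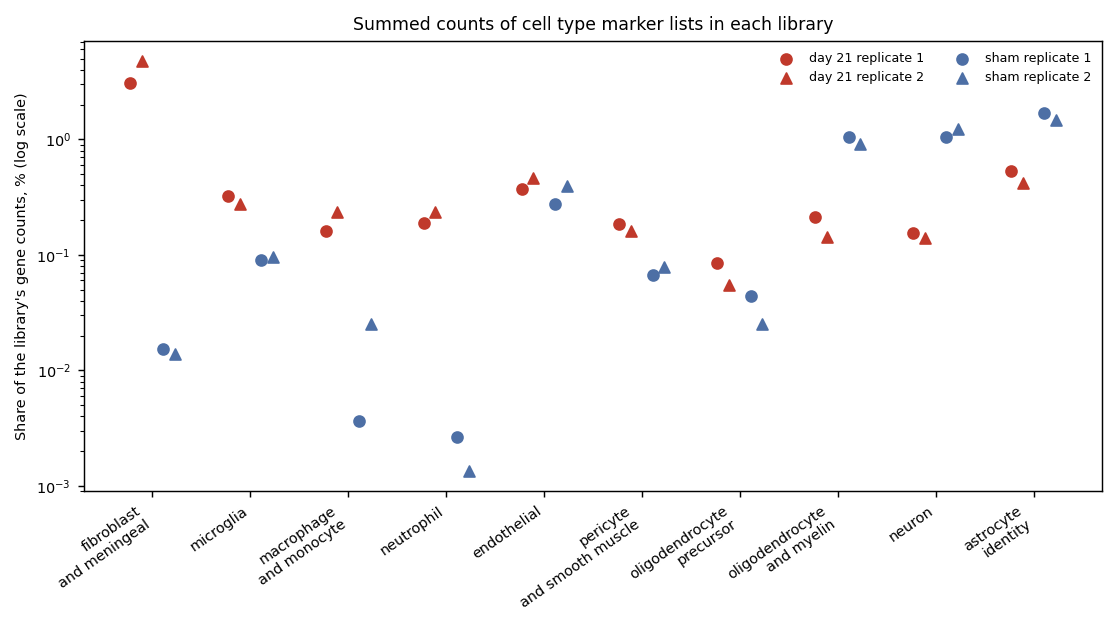
Summed share of a library's gene counts (percent, log scale) in 10 marker lists, day 21 in red to the left and sham in blue to the right, circles for replicate 1 and triangles for replicate 2. The fibroblast list lay at 3.06% and 4.74% at day 21 and 0.0138% to 0.0153% in sham, the neuron, myelin and astrocyte lists were lower at day 21, and the endothelial list overlapped.

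Growth factor systems changed in part. Of TGF-beta family genes, 13 of 26 tested members passed as higher and 0 as lower, with a median log2 fold change of 1.61. Higher calls numbered 8 to 12 over the 4 leave-one-out fits (8 omitting sham replicate 1). Gdf15, a stress-induced ligand, had 14.1 and 11.3 CPM at day 21, against 0.179 and 0.106 CPM in sham (6.62 ± 0.94, adjusted p = 0.00079), the binding protein Ltbp3 413 and 603 CPM at day 21, against 9.44 and 24.4 CPM in sham (4.90 ± 0.63), and the co-receptor Tgfbr3 158 and 126 CPM at day 21, against 7.94 and 14.1 CPM in sham (3.68 ± 0.61). Of insulin-like growth factor genes, 9 of 16 tested members passed as higher and 0 as lower, with a median log2 fold change of 2.45, and 9 passed in each fit without 1 library. The ligand Igf1 had 280.2 and 168 CPM at day 21, against 2.69 and 1.15 CPM in sham (6.90 ± 0.84, adjusted p = 0.000357), and the binding protein Igfbp4 had 3590.5 and 3167 CPM at day 21, against 101 and 60.3 CPM in sham (5.39 ± 0.55, adjusted p = 0.000143). Angiogenic and neurotrophic factors were split (6 higher and 6 lower of 23, median 0.40). Lower calls numbered 1 to 3 over the 4 leave-one-out fits (2 omitting day 21 replicate 1, 1 omitting day 21 replicate 2, 2 omitting sham replicate 1 and 3 omitting sham replicate 2). Angpt1 and Angpt2, opposing ligands of the endothelial receptor Tie2, were both higher, at 91.9 and 68.9 CPM at day 21, against 3.88 and 4.34 CPM in sham (4.29 ± 0.62) and 116 and 102 CPM at day 21, against 3.94 and 5.72 CPM in sham (4.49 ± 0.60). Vegfa did not pass at 35.3 and 48.1 CPM at day 21, against 27.4 and 35.9 CPM in sham (adjusted p = 0.476). Of retinoid handling genes, 10 of 18 tested members passed as higher and 1 as lower, with a median log2 fold change of 2.25. Aldh1a2, which makes retinoic acid and marks meninges, had 167 and 178 CPM at day 21, against 3.76 and 4.46 CPM in sham (5.39 ± 0.44, adjusted p = 6.04e-05). Cyp1b1 had 1994 and 1119.8 CPM at day 21, against 1.97 and 0.818 CPM in sham (10.16 ± 0.84, adjusted p = 6.04e-05).

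Stress responses differed by pathway. Endoplasmic reticulum stress genes were higher in 13 of 20 and lower in 2 (median 2.08). Hspa5, the chaperone BiP, had 1753 and 1797 CPM at day 21, against 187 and 176 CPM in sham (3.29 ± 0.39, adjusted p = 0.000318). Pdia4 had 395 and 400.3 CPM at day 21, against 48.02 and 40.4 CPM in sham (3.17 ± 0.39). Antioxidant and metallothionein genes were split evenly (6 higher and 6 lower of 23, median 0.08), and their median changed sign under other settings. Gpx3, a secreted glutathione peroxidase, had 4673 and 4120.2 CPM at day 21, against 10.7 and 10.5 CPM in sham (8.70 ± 0.56, adjusted p = 4.26e-05). Hmox1, heme oxygenase, had 68.9 and 62.3 CPM at day 21, against 4.06 and 3.60 CPM in sham (4.10 ± 0.36, adjusted p = 7.12e-05). Mt3, the brain metallothionein, had 21.5 and 23.9 CPM at day 21, against 451 and 772 CPM in sham (-4.75 ± 0.86, adjusted p = 0.00275). Immediate early genes were higher in 11 of 19 and lower in 2 (median 2.305). Higher calls numbered 2 to 8 over the 4 leave-one-out fits (4 omitting day 21 replicate 1, 6 omitting sham replicate 1 and 2 omitting sham replicate 2). Fos had 1431 and 1168 CPM at day 21, against 83.9 and 76.3 CPM in sham (4.02 ± 0.65, adjusted p = 0.00161). Jun had 1226 and 879 CPM at day 21, against 138 and 87.3 CPM in sham (3.23 ± 0.69, adjusted p = 0.00637; adjusted p = 0.0528 omitting sham replicate 2). Senescence and growth arrest genes were higher in 8 of 16 and lower in 0 (median 2.19), among them Gadd45b at 85.4 and 102 CPM at day 21, against 6.27 and 9.995 CPM in sham (3.52 ± 0.50). Hypoxia genes passed as higher in 6 of 17 and lower in 2 (median 0.90). Higher calls numbered 3 to 4 over the 4 leave-one-out fits (3 omitting day 21 replicate 1, 3 omitting day 21 replicate 2 and 3 omitting sham replicate 1). Adm, adrenomedullin, had 48.4 and 41.5 CPM at day 21, against 2.21 and 2.27 CPM in sham (4.32 ± 0.65, adjusted p = 0.00106). Heat shock genes stayed near the background (3 higher and 2 lower of 14, median 0.24), with Bag3 higher at 85.5 and 64.1 CPM at day 21, against 10.2 and 7.24 CPM in sham (3.10 ± 0.49).

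Genes of resting astrocyte function were lower, with less stable calls in the leave-one-out fits, which hold no replicate block. Of astrocyte identity genes, 1 of 30 tested members passed as higher and 15 as lower (19 lower with the replicate block), with a median log2 fold change of -1.84. Lower calls numbered 2 to 9 over the 4 leave-one-out fits (3 omitting day 21 replicate 1, 2 omitting day 21 replicate 2, 3 omitting sham replicate 1 and 9 omitting sham replicate 2). Cldn10 had 6.72 and 8.58 CPM at day 21, against 93.8 and 77.5 CPM in sham (-3.48 ± 0.67, adjusted p = 0.00369). Ntsr2, a neurotensin receptor of cortical astrocytes, had 42.8 and 44.3 CPM at day 21, against 342 and 270.2 CPM in sham (-2.81 ± 0.55, adjusted p = 0.00392). Both calls held in each fit. Aldoc, the astrocyte aldolase, had 680.2 and 874 CPM at day 21, against 5275 and 5248 CPM in sham (-2.76 ± 0.73, adjusted p = 0.0159; adjusted p = 0.103 omitting day 21 replicate 1, 0.0773 omitting day 21 replicate 2 and 0.0518 omitting sham replicate 1). S100b had 56.96 and 24.8 CPM at day 21, against 365 and 189 CPM in sham (-2.76 ± 0.72, adjusted p = 0.0153; adjusted p = 0.111 omitting day 21 replicate 2 and 0.0808 omitting sham replicate 1). Markers that did not pass included Slc1a3, the glutamate transporter GLAST, at 379.8 and 284 CPM at day 21, against 603 and 513 CPM in sham (adjusted p = 0.215), and the transcription factor Sox9 at 148 and 119.6 CPM at day 21, against 147 and 97.9 CPM in sham (adjusted p = 0.874). Aldh1l1 had 50.1 and 71.1 CPM at day 21, against 149 and 243 CPM in sham (adjusted p = 0.137, 0.027 with the replicate block). Clu had 2012 and 2329 CPM at day 21, against 1830.2 and 2001 CPM in sham (adjusted p = 0.845). None of the 30 identity genes was at 0 in either group. The same held for the neuron and endothelial markers, so this does not tell which cell types were present. The identity list held 0.534% and 0.420% of the counts at day 21, against 1.70% and 1.48% in sham.

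Genes for transmitter, potassium and water handling were lower in part. Of glutamate, GABA and amino acid handling genes, 1 of 18 tested members passed as higher and 10 as lower (11 lower with the replicate block), with a median log2 fold change of -1.54. Lower calls numbered 0 to 6 over the 4 leave-one-out fits (2 omitting day 21 replicate 1, 0 omitting day 21 replicate 2, 6 omitting sham replicate 1 and 6 omitting sham replicate 2). Slc1a2, the main glutamate transporter of the forebrain (GLT-1), had 258 and 146 CPM at day 21, against 1478 and 600.4 CPM in sham (-2.36 ± 0.76, adjusted p = 0.0369; adjusted p = 0.0885 omitting day 21 replicate 1, 0.194 omitting day 21 replicate 2 and 0.213 omitting sham replicate 1). Glul, glutamine synthetase, had 386 and 421 CPM at day 21, against 1130.1 and 885 CPM in sham (-1.32 ± 0.43, adjusted p = 0.039; adjusted p = 0.156 omitting day 21 replicate 1, 0.137 omitting day 21 replicate 2, 0.164 omitting sham replicate 1 and 0.0694 omitting sham replicate 2). Slc7a11, the cystine-glutamate exchanger, was the higher member, at 339 and 198 CPM at day 21, against 13.6 and 5.41 CPM in sham (4.83 ± 0.55, adjusted p = 0.000248). Water, potassium and gap junction genes were split (4 higher and 5 lower of 18, median -0.79). Lower calls numbered 1 to 4 over the 4 leave-one-out fits (2 omitting day 21 replicate 1, 1 omitting day 21 replicate 2 and 2 omitting sham replicate 1), and 8 with the replicate block. Higher calls came to 2 to 3 over the 4 leave-one-out fits (2 omitting day 21 replicate 1). Aqp4, the end-foot water channel, had 28.5 and 16.8 CPM at day 21, against 84.99 and 59.1 CPM in sham and narrowly missed (adjusted p = 0.051, 0.0311 with the replicate block). Kcnj10, the potassium channel Kir4.1, had 12.3 and 4.97 CPM at day 21, against 73.5 and 20.2 CPM in sham (adjusted p = 0.094, 0.0249 with the block). Gja1, connexin 43, had 328 and 152 CPM at day 21, against 149 and 84.5 CPM in sham (adjusted p = 0.141, 0.031 with the block). Gjb2, connexin 26 and a connexin of the leptomeninges, was higher at 157 and 82.03 CPM at day 21, against 3.17 and 1.05 CPM in sham (5.87 ± 0.69, adjusted p = 0.000298). Of secreted factors that act on synapses, 9 of 16 tested members passed as higher and 3 as lower, with a median log2 fold change of 2.34. Lower calls came to 1 to 2 over the 4 leave-one-out fits (1 omitting day 21 replicate 2, 1 omitting sham replicate 1 and 1 omitting sham replicate 2). The thrombospondins, which promote synapse formation, rose most, with Thbs1 at 254 and 226 CPM at day 21, against 3.17 and 4.13 CPM in sham (6.03 ± 0.62, adjusted p = 0.000152) and Thbs2 at 585 and 605 CPM at day 21, against 2.51 and 3.03 CPM in sham (7.74 ± 0.66, adjusted p = 7e-05).

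In lipid metabolism, synthesis and efflux genes differed in direction, with lower calls mostly among synthesis genes and higher calls mostly among efflux genes. Of cholesterol synthesis genes, 1 of 22 tested members passed as higher and 9 as lower, with a median log2 fold change of -1.33. Lower calls numbered 3 to 5 over the 4 leave-one-out fits (3 omitting day 21 replicate 1, 3 omitting day 21 replicate 2, 5 omitting sham replicate 1 and 5 omitting sham replicate 2), and 15 with the replicate block. Cyp51, lanosterol demethylase, had 33.2 and 30.1 CPM at day 21, against 113 and 112 CPM in sham (-1.83 ± 0.34, adjusted p = 0.00308). Srebf2, the transcription factor that drives the pathway, had 82.3 and 93.8 CPM at day 21, against 315 and 372 CPM in sham (-1.96 ± 0.45, adjusted p = 0.00843; adjusted p = 0.0624 omitting day 21 replicate 1 and 0.0512 omitting day 21 replicate 2). Of lipid efflux and apolipoprotein genes, 9 of 18 tested members passed as higher and 2 as lower, with a median log2 fold change of 2.16, and 9 passed as higher in each fit without 1 library. Apod, apolipoprotein D, had 8467 and 11912 CPM at day 21, against 104 and 86.4 CPM in sham (6.75 ± 0.48, adjusted p = 4.26e-05). Lpl, lipoprotein lipase, had 333 and 398 CPM at day 21, against 7.11 and 7.26 CPM in sham (5.67 ± 0.51, adjusted p = 8.11e-05). Apoe, the main brain apolipoprotein, had 13993 and 16135 CPM at day 21, against 7330.3 and 4658 CPM in sham and did not pass (adjusted p = 0.154).

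Short transcripts of respiration and translation were lower. Of nuclear-encoded respiration genes, 0 of 25 tested members passed as higher and 18 as lower, with a median log2 fold change of -2.71. Lower calls numbered 15 to 16 over the 4 leave-one-out fits. The cytochrome oxidase subunit Cox6c had 55.1 and 49.05 CPM at day 21, against 898 and 752 CPM in sham (-3.99 ± 0.56, adjusted p = 0.000777). Cox8a had 128 and 142 CPM at day 21, against 2223 and 1648 CPM in sham (-3.84 ± 0.57, adjusted p = 0.000989). Of cytosolic ribosomal protein genes, 0 of 23 tested members passed as higher and 17 as lower, with a median log2 fold change of -1.76. Lower calls numbered 9 to 15 over the 4 leave-one-out fits (9 omitting day 21 replicate 1). Rps24 had 7.73 and 8.09 CPM at day 21, against 96.9 and 117 CPM in sham (-3.76 ± 0.49, adjusted p = 0.000494), but ribosomal genes have many processed copies and their counts can be split. Glycolysis and lactate genes were split (4 higher and 4 lower of 20, median -0.94). Higher calls numbered 2 in each of the 4 leave-one-out fits. Lower calls came to 0 to 2 over the 4 leave-one-out fits (0 omitting day 21 replicate 1, 0 omitting day 21 replicate 2, 1 omitting sham replicate 1 and 2 omitting sham replicate 2), and 10 with the replicate block. Pfkfb3, an activator of glycolysis, was higher at 56.7 and 61.3 CPM at day 21, against 9.68 and 9.93 CPM in sham (2.59 ± 0.42, adjusted p = 0.00169). Gapdh and Eno1 were among the genes counted differently in the 2 replicates, so their values are uncertain. Gapdh had 0.448 and 40.5 CPM at day 21, against 0.956 and 155 CPM in sham. Eno1 had 0.056 and 195 CPM at day 21, against 0.717 and 404 CPM in sham.

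Transcript length moved with these calls. The 14979 tested genes with an annotated length were put in 10 classes of equal size. The class with the shortest transcripts (312 to 1412 bases) had a median log2 fold change of -0.73, with 10.3% higher and 25.7% lower. The other classes had medians of -0.13 to 0.29, with 16.1% to 21% higher and 12.8% to 16.5% lower. The median length was 1521 bases in the respiration list and 1358 in the ribosomal list, against 3354 over all tested genes. With an offset for transcript length, chosen after the data were seen, the counts were 2742 higher and 2441 lower in all. The respiration list then had 18 lower and 0 higher (median -1.83), and the ribosomal list 13 lower and 0 higher (median -1.61). In 10 such classes of GC content, the one with the highest content (58.1% to 72.8%) had a median of -0.33, with 16% higher and 23% lower. The part of RNA quality in these differences was not tested.

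**Figure D4:**
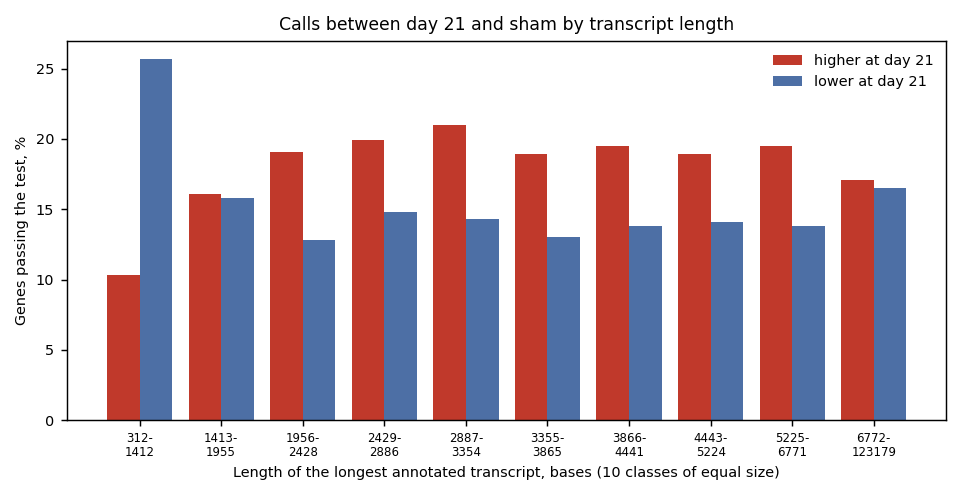
Percent of tested genes that passed as higher (red) or lower (blue) at day 21 than in sham in each of 10 classes of transcript length, in bases. The shortest class had 10.3% higher and 25.7% lower genes, and in no other class did lower calls pass 16.5%.

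By the full fit, neuron markers had the highest share of lower calls of these lists (94.4%). In all 4 leave-one-out fits 7 of 18 held, against 15 of 25 respiration genes. Of 18 tested neuron markers, 17 were lower and 0 higher (median -2.91). Lower calls numbered 9 to 15 over the 4 leave-one-out fits (9 omitting day 21 replicate 1 and 9 omitting day 21 replicate 2). Snap25, a synaptic SNARE protein, had 112 and 97.6 CPM at day 21, against 1402 and 1138 CPM in sham (-3.60 ± 0.36, adjusted p = 0.000131). The neuropeptide gene Sst had 2.41 and 2.86 CPM at day 21, against 53.2 and 39.6 CPM in sham. Npy had 1.01 and 1.92 CPM at day 21, against 24.7 and 25.4 CPM in sham. Kcnv1, a potassium channel subunit of neurons, had 1.12 and 1.13 CPM at day 21, against 28.8 and 20.99 CPM in sham (-4.47 ± 0.63). Lamp5, which marks a class of interneurons, had 3.81 and 2.89 CPM at day 21, against 71.7 and 55.6 CPM in sham (-4.25 ± 0.50, adjusted p = 0.000292). Among genes with at least 10 CPM in sham, groups apart and a call in all 4 leave-one-out fits, Gng13 fell most, with 2.13 and 3.39 CPM at day 21, against 86.96 and 116 CPM in sham (-5.19 ± 0.98, adjusted p = 0.00336). The summed neuron markers held 0.154% and 0.139% of the counts at day 21, against 1.04% and 1.23% in sham. Oligodendrocyte and myelin markers held 0.214% and 0.142% of the counts at day 21, against 1.05% and 0.919% in sham, with 2 of 15 higher and 4 lower (median -0.88). Lower calls came to 2 to 3 over the 4 leave-one-out fits (2 omitting day 21 replicate 2). Mbp, myelin basic protein, had 1361 and 1097 CPM at day 21, against 9070.2 and 8610.0 CPM in sham (-2.85 ± 0.44, adjusted p = 0.00126). Oligodendrocyte precursor markers were higher in 2 of 12 and lower in 1 (median -0.20), and Pdgfra, above, was among the higher ones. Without any 1 library, 1 member was higher and 0 lower. Red cell and platelet markers were lower in 3 of 7 and higher in 0 (median -2.27), and lower in 1 with the offset for transcript length. Alas2, the heme synthesis enzyme of red cells, had 23.7 and 28.8 CPM at day 21, against 244 and 291 CPM in sham (-3.34 ± 0.71, adjusted p = 0.00588). The part of carried-over neuronal or blood transcripts in these differences was not tested.

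Few division genes differed at day 21. Of 30 cell division genes, 5 were higher and 1 lower (median 0.26), near the background. Higher calls numbered 0 to 1 over the 4 leave-one-out fits (0 omitting day 21 replicate 1, 0 omitting day 21 replicate 2, 1 omitting sham replicate 1 and 0 omitting sham replicate 2). Mki67, a marker of cycling cells, had 4.42 and 3.41 CPM at day 21, against 1.97 and 3.72 CPM in sham and did not pass (adjusted p = 0.57). Notch and neural stem cell genes were higher in 2 of 23 and lower in 6 (median -0.34). Lower calls numbered 1 to 5 over the 4 leave-one-out fits (3 omitting day 21 replicate 1, 1 omitting day 21 replicate 2 and 2 omitting sham replicate 1). Hes5, a Notch target, had 4.70 and 3.96 CPM at day 21, against 63.8 and 37.5 CPM in sham (-3.55 ± 0.72, adjusted p = 0.00473), whereas the receptor Notch2 was higher at 64.4 and 70.9 CPM at day 21, against 3.70 and 6.35 CPM in sham (3.74 ± 0.39, adjusted p = 0.000158). Axon guidance and growth cone genes were higher in 8 of 26 and lower in 1 (median 0.77). Higher calls numbered 4 to 6 over the 4 leave-one-out fits (4 omitting day 21 replicate 1, 4 omitting day 21 replicate 2 and 4 omitting sham replicate 1). Nrp1, a semaphorin and VEGF receptor, had 677 and 599.8 CPM at day 21, against 32.1 and 38.5 CPM in sham (4.18 ± 0.34, adjusted p = 5.85e-05). Gap43, a growth cone protein, had 39.7 and 35.1 CPM at day 21, against 623 and 369.7 CPM in sham (-3.73 ± 0.59, adjusted p = 0.00137). Annexins and S100 proteins were higher in 6 of 18 and lower in 4 (median 1.07). Lower calls came to 2 to 4 over the 4 leave-one-out fits (2 omitting day 21 replicate 1, 2 omitting day 21 replicate 2 and 2 omitting sham replicate 1). Anxa1, a pro-resolving annexin, led them at 449.6 and 728 CPM at day 21, against 14.3 and 14.7 CPM in sham (5.34 ± 0.56, adjusted p = 0.000171).

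Against day 7, 69 genes passed (0.441% of those tested), 38 higher at day 21 (0.243%) and 31 lower (0.198%). In all, 2099 genes (13.4%) had an unadjusted p under 0.05 by edgeR. The count fell to 2 to 6 when any 1 of the 4 libraries was left out and came to 635 with the replicate block and 1044 by DESeq2. Cxcl5 and Lcn2 alone passed in the full fit and each of the 4. Lcn2 had 1344 and 2113 CPM at day 21, against 4.97 and 7.36 CPM at day 7 (8.13 ± 0.58, adjusted p = 0.000428, at most 0.0339 omitting day 7 replicate 1). Cxcl5 had 486 and 358 CPM at day 21, against 0.202 and 0.353 CPM at day 7 (10.45 ± 0.70, adjusted p = 0.000428, at most 0.0297 omitting day 7 replicate 1). Over all groups Lcn2 had 4.30 and 5.51 CPM in sham, 284 and 331 CPM at day 1, 45.4 and 90.7 CPM at day 3, 4.97 and 7.36 CPM at day 7, 1344 and 2113 CPM at day 21 and 1354 and 1498 CPM at day 60. Its level was thus high at day 1, back near sham at day 7, and high again at days 21 and 60.

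Other secreted proteins were higher at day 21 than at day 7, but their calls did not hold in every leave-one-out fit. That of C3 ended whichever of the 4 libraries was left out. Saa3 had 414 and 666 CPM at day 21, against 2.35 and 3.22 CPM at day 7 (7.59 ± 0.77, adjusted p = 0.00383, up to 0.146 omitting day 7 replicate 1). C3 had 3611 and 6280.0 CPM at day 21, against 25.99 and 38.4 CPM at day 7 (7.26 ± 1.17, adjusted p = 0.0363, up to 0.291 omitting day 7 replicate 2). Gpx3 had 4673 and 4120.2 CPM at day 21, against 211 and 173 CPM at day 7 (4.52 ± 0.46, adjusted p = 0.00383, up to 0.146 omitting day 7 replicate 1). Prok2, a prokineticin, had 44.2 and 31.8 CPM at day 21, against 0.336 and 0.316 CPM at day 7 (6.87 ± 0.63, adjusted p = 0.00323, up to 0.124 omitting day 7 replicate 2). In each case both day 21 libraries lay above both day 7 libraries. Among genes lower than at day 7, Spp1, the phagocyte and matrix protein osteopontin, had 2027 and 1982 CPM at day 21, against 29070.5 and 28423 CPM at day 7 (-3.84 ± 0.51, adjusted p = 0.0169, up to 0.226 omitting day 21 replicate 1), and stayed above sham (6.71 ± 0.58 against sham, adjusted p = 7.11e-05). Tnc, the scar glycoprotein tenascin C, had 6.95 and 6.24 CPM at day 21, against 61.5 and 78.7 CPM at day 7 (-3.41 ± 0.58, adjusted p = 0.0442, up to 0.322 omitting day 21 replicate 1). Col6a3 had 75.1 and 93.2 CPM at day 21, against 649.7 and 770.0 CPM at day 7 (-3.08 ± 0.44, adjusted p = 0.021, up to 0.294 omitting day 21 replicate 1). The collagen list had a median of -2.07 against day 7, where 2 of 19 passed, and the cell division list a median of -1.81, where 2 of 30 passed. Astrocyte identity genes had a median of 1.70 above day 7 and neuron markers one of 2.22, but 0 of 30 and 1 of 18 of these genes passed.

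**Figure D5:**
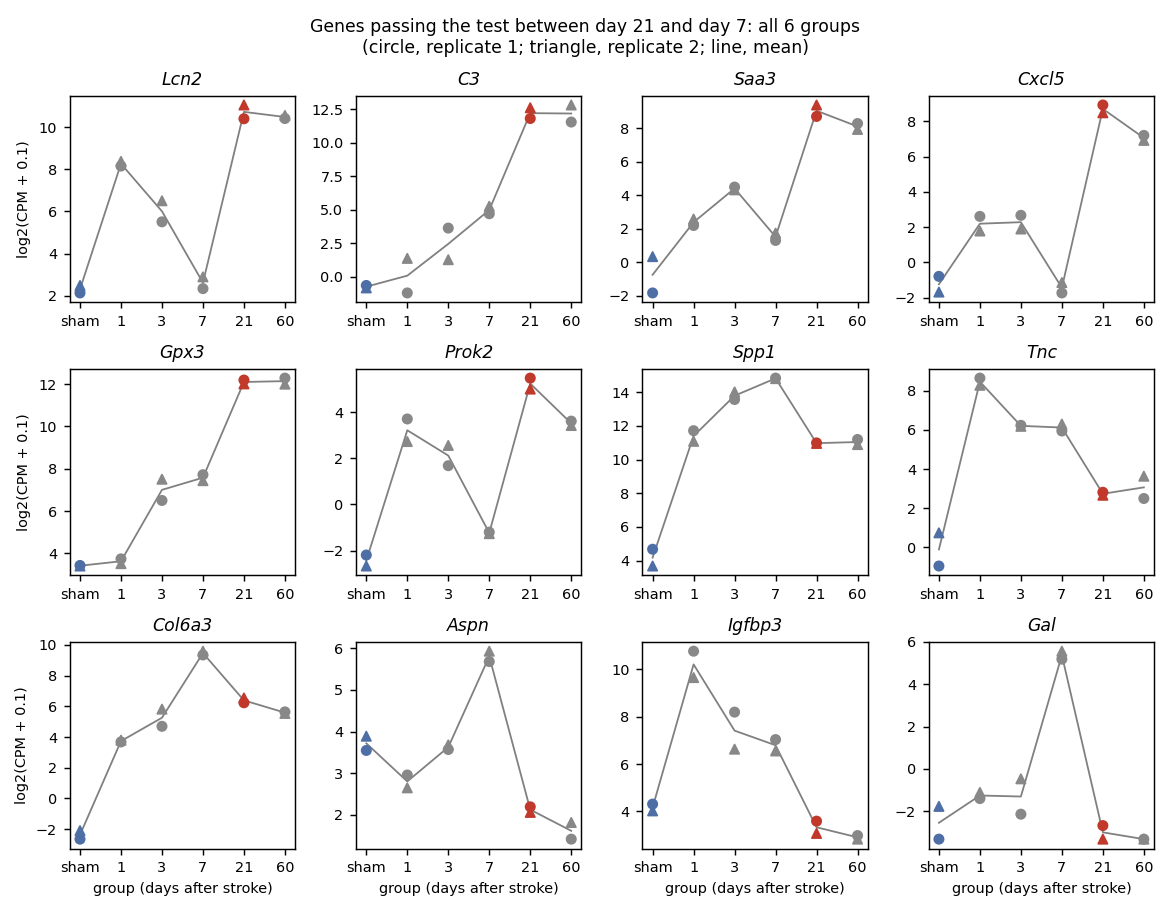
Log2(CPM + 0.1) of 12 genes that passed between day 21 and day 7 in sham and at days 1, 3, 7, 21 and 60 (circle, replicate 1; triangle, replicate 2; line, mean of the logs), with day 21 in red and sham in blue. Lcn2, Saa3, Cxcl5 and Prok2 were higher at day 21 than at days 1, 3 and 7, and Spp1, Tnc, Col6a3, Aspn, Igfbp3 and Gal were lower at day 21 than at day 7.

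Against day 60, 0 genes passed (0%) by edgeR, with 847 genes (5.42%) at an unadjusted p under 0.05, 21 with the replicate block and 114 by DESeq2. The correlation of log2 CPM between day 21 and day 60 libraries was 0.883 to 0.954, against 0.710 to 0.764 between day 21 and sham libraries. The 2 ranges did not overlap, but the range between day 21 and day 7 libraries, 0.890 to 0.938, lay within that for day 60. Among the genes nearest to passing, which did pass with the replicate block, Cst7, a cystatin of activated microglia, had 34.9 and 37.8 CPM at day 21, against 0.344 and 1.17 CPM at day 60 (5.48 ± 0.74 on the log2 scale, adjusted p = 0.0838, 0.0247 with the replicate block). Fcrls had 117 and 119 CPM at day 21, against 11.3 and 11.4 CPM at day 60 (3.38 ± 0.40, adjusted p = 0.0838, 0.0112 with the replicate block). Car3 had 1.12 and 3.01 CPM at day 21, against 111 and 112 CPM at day 60 (-5.72 ± 1.03, adjusted p = 0.189, 0.0278 with the replicate block). Lhx8 had 3.75 and 3.77 CPM at day 21, against 52.5 and 77.00 CPM at day 60 (-4.11 ± 0.50, adjusted p = 0.101, 0.0329 with the replicate block). C3 had 3611 and 6280.0 CPM at day 21, against 3005 and 7265 CPM at day 60, levels that overlapped. A p that misses the threshold with 2 libraries a group does not show that the 2 times were alike.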

How the data were processed

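Gene counts of 12 mouse libraries were deposited by the authors in 1 table of 15774 genes, with all 12 columns mapped to samples and 0 unmapped. Reads were aligned with Bowtie2 2.3.4.2 to mm10 and counted with HTSeq 0.6.1, per the submitters' processing notes. The annotation, the strand setting and the handling of reads that map to several places are not given in the sources used here.

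From these counts, edgeR 4.0.16 (R 4.3.3) was fitted to all 12 libraries with TMM scaling, 1 coefficient per group and no block, after filterByExpr at a minimum count of 10, which kept 15635 genes. The quasi-likelihood F test with Benjamini-Hochberg adjustment over all tested genes gave the calls, at an adjusted p under 0.05. The step was tested on simulated data. Day 21 and day 7 or day 60 were contrasted in the same fit. In leave-one-out fits the lone library of a group is assumed to vary like the other groups. A gene at 0 in both libraries of a group has a fold bound only, at 3 counts per library, and a gene with 1 to 3 sham counts has CPM only. The prior count of log2 CPM was 2, whereas the fitted log2 fold changes rest on the default prior count of the fit.

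The comparison, the gene lists and the named genes were chosen with earlier results of these data known. Named genes were the 12 largest called changes in each direction against sham (at least 10 CPM in the higher group, groups apart, called in all 4 leave-one-out fits), up to 4 called members of each of 53 lists, 25 landmark genes and the 6 largest called changes in each direction against day 7, or against day 60, where none was called, the 3 smallest unadjusted p in each direction. Other list members given with values, such as C2, Cfb, Fth1, Foxc1, Slc6a13, Tbx18, Isg15, Ifit1, P2ry12 and H2-D1, were chosen after their values were seen. The 53 lists held 1027 entries, of which 14 were not found in the table and 2 were matched by an older symbol. Of the 240 named genes, 4 overlap another coding gene on the same strand and 24 on the opposite strand (GENCODE, mm10), and their counts are uncertain to that extent. The groups share replicate numbers. In all 15 pairs of groups the differences between replicate 2 and replicate 1 correlated across genes (0.319 to 0.713, threshold 0.1). The numbers were thus taken to pair the libraries. A blocked value stands beside a gene where the block changes its call. Blocked counts are given for some lists only, and no list had fewer calls with the block than without it.

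Promoters came from RefSeq (GRCm38.p6). Besides the 2 motifs in the text, an NF-kB-type motif (GGG, any 2 bases, TT, any base and CC) and the palindrome TTCNNNGAA (STAT-type) were searched on both strands of the 250 bases before each start. They matched 4.11% and 7.02% of all promoters, 5.76% and 6.89% of those of higher genes, and 30.4% and 0.0% of those of the cytokine list. Alternatives were RLE size factors, no filter, the block, thinning, the libraries of the 2 groups alone, DESeq2 1.42.0, each library left out, and an offset for transcript length added after seeing the data. Some named genes are not reported here.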

Additional observations from a re-analysis of the deposited data

Results flagged for a closer look

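Over all tested genes, 69 passed between day 21 and day 7 (0.441%), and some genes were named for that call. Among the 240 named genes, the change since sham differed between these times in 22, so this number is no separate result. The values are from the edgeR contrast of these times, on log2 scales with sham cancelling out. Of these, Lcn2 (8.13) and Cxcl5 (10.45) passed in each of the 4 fits that leave out 1 library. All other calls ended in at least 1 of these fits.

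Higher at day 21 than at day 7 were also Saa3 (7.59), C3 (7.26), Prok2 (6.87), Cxcl13 (4.93), Gpx3 (4.52), Lamp5 (2.92), Slc7a11 (2.87), Serping1 (2.55) and Snap25 (2.29). Cxcl13 had 358 and 294 CPM at day 21, against 11.3 and 10.2 CPM at day 7 (adjusted p = 0.021, up to 0.274 omitting day 7 replicate 2). Serping1 had 6869 and 7500.1 CPM at day 21, against 1093 and 1361 CPM at day 7 (adjusted p = 0.0442, up to 0.291 omitting day 7 replicate 2). Snap25 had 112 and 97.6 CPM at day 21, against 25.1 and 17.7 CPM at day 7 (adjusted p = 0.0277, up to 0.282 omitting day 7 replicate 2). The fitted value of Lhx8, a LIM homeobox factor, was 10.93 and depends on the prior count of the fit. Lhx8 had 3.75 and 3.77 CPM at day 21, against 0 and 0 CPM at day 7.

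Lower at day 21 than at day 7 were Spp1 (-3.84), Aspn (-3.71), Igfbp3 (-3.47), Tnc (-3.41), Col26a1 (-3.38), Col6a3 (-3.08), Penk (-2.50) and Fcrls (-2.30). Pf4, a chemokine of platelets and border macrophages, had 0.392 and 0.430 CPM at day 21, against 8.13 and 6.15 CPM at day 7 (-4.09, adjusted p = 0.00383, up to 0.0897 omitting day 21 replicate 2). Aspn, the leucine-rich proteoglycan asporin, had 4.48 and 4.07 CPM at day 21, against 51.05 and 60.7 CPM at day 7 (adjusted p = 0.00383, up to 0.0897 omitting day 21 replicate 2). Gal, the neuropeptide galanin, had 0.0560 and 0 CPM at day 21, against 36.3 and 47.2 CPM at day 7, and its fitted value of -11.85 depends on the prior count (adjusted p = 0.021, up to 0.227 omitting day 21 replicate 2).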

How the results depend on the processing

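Against sham, the call count of 5190 was 5276 with RLE size factors (2564 higher, 2712 lower, 48.6% higher against 53.68%), 5180 without a filter, 5249 with the deeper libraries thinned, 6650 from the libraries of the 2 groups alone, 6482 by DESeq2 (3084 higher, 3398 lower) and 5183 with the length offset, an alternative chosen after seeing the data. Without 1 library it ranged from 2628 to 3406 (higher 1685 to 1943, lower 805 to 1463). Against day 7, the count of 69 was 350 from the 2 groups alone, 1044 by DESeq2, 56 to 81 with RLE size factors, no filter, thinning or the length offset, and 2 to 6 without 1 library. Against day 60, the count of 0 was 5 from the 2 groups alone and 114 by DESeq2, and 0 without any 1 library.

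With the replicate block the counts were 7227 against sham, 635 against day 7 and 21 against day 60. The block ended 2 calls among the 240 named genes against sham and added 6, and it added all 6 genes named against day 60. It changed no other call of a named gene. No alternative turned the direction of a named call. Of 223 named calls against sham, 54 ended without at least 1 library. The median of antioxidant genes was -0.06 with RLE size factors and by DESeq2, -0.13 omitting sham replicate 2 and -0.11 omitting day 21 replicate 2. That of heat shock genes was -0.08 omitting sham replicate 1 and -0.38 omitting day 21 replicate 2, and that of endothelial markers -0.06 omitting sham replicate 1. The cause of these shifts was not tested. Replicate 1 libraries were the shallower ones, which limits genes of few counts.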
